A study of Mus musculus with 12 samples.

Results

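The cytochrome P450 genes of families 1 to 4 were examined in livers of embryos at embryonic day E16.5 and of pups at postnatal day 3 (P3). Every gene whose symbol starts with Cyp1, Cyp2, Cyp3 or Cyp4 followed by a letter, and whose identifier was listed at both stages, was taken. This gave 81 genes of the 22519 listed at both stages, with 3 in family 1, 49 in family 2, 9 in family 3 and 20 in family 4. The cells came from Jag1+/+, Jag1Ndr/+ and Jag1Ndr/Ndr animals of crosses between Jag1Ndr/+ mice, and the labels gave 12 samples, each from 1 individual. Ndr, the Nodder allele, is a missense change in Jag1, a ligand of Notch receptors, and is carried in the germline by every cell of the animal. Livers were dissociated with enzymes, with TrypLE added at E16.5 only, dead cells were removed on magnetic beads, and the remaining cells went into droplets without a sort for hepatocytes. Homozygous pups at P3 were recognised by jaundice, and spleens were also dissected from pups. The sex of each library is not known from the labels used here, although several of these genes are sex-biased in adult mouse liver, and its part in differences between libraries was not tested.

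Microsomal P450 enzymes are heme proteins of the endoplasmic reticulum that insert an oxygen atom into their substrate with electrons passed on by the reductase Por. Families 1 to 3 are known mainly for the oxidation of drugs, pollutants, steroids and arachidonic acid, and family 4 for the hydroxylation of fatty acids and eicosanoids at the end of their chain. Most of their output in the adult body is in hepatocytes, where the nuclear receptors Nr1i2 (PXR), Nr1i3 (CAR), Ppara and the dioxin receptor Ahr switch single subfamilies on, and many members are known to be silent or low in the fetal liver.

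The promoters of 4 genes are shown, 3 whose transcripts rose and 1 whose levels overlapped, as a contrast. Cyp4a14 and Cyp4a10, with the largest changes, are not among them, since they were not in the promoter table used. Transcripts of Cyp1a2 and Cyp3a25 were near 0 at E16.5 and those of Cyp2e1 low, all 3 rose by P3, and Cyp2c68 had overlapping levels at both stages. The sequences are RefSeq's on GRCm38.p6, 250 bases before the annotated start, read in the direction of transcription. Cyp2e1 is at chr7:140763569-140763818 on the plus strand, Cyp1a2 at chr9:57683656-57683905, Cyp3a25 at chr5:146009618-146009867 and Cyp2c68 at chr19:39741102-39741351, these 3 on the minus strand. Capitals mark a match to 1 of 5 motifs on either strand.
Cyp2e1: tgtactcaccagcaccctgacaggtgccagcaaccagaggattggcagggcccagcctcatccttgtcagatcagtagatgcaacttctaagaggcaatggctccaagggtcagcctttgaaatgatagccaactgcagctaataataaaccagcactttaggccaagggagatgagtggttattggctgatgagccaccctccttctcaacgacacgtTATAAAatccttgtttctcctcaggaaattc
Cyp1a2: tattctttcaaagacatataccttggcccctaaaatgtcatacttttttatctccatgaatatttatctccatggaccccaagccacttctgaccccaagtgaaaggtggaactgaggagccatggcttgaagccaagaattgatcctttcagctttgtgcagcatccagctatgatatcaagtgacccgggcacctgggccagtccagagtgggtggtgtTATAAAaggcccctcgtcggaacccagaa
Cyp3a25: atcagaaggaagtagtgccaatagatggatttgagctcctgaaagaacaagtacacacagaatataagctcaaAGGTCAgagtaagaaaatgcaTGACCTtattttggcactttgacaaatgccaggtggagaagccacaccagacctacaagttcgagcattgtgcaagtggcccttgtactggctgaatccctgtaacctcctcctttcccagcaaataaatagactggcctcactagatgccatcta
Cyp2c68: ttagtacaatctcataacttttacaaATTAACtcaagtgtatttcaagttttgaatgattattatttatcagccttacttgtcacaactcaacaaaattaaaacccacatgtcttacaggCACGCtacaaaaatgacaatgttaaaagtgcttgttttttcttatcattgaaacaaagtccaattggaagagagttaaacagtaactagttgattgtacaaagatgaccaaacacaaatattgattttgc

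In Cyp2e1 and Cyp1a2 the capitals are a TATA box (TATAAA), 31 and 29 bases before the start. In Cyp3a25 they are the nuclear receptor motif AGGTCA, as written 177 bases and on the other strand 156 bases before the start. In Cyp2c68 they are the HNF1 motif GTTAAT and the dioxin response core GCGTG, both on the other strand, 224 and 130 bases before the start. Promoter entries were found for 66 of the 81 genes, 73 windows of 300 bases that run to 50 bases past the start. TATAAA was in 29 of the 73 (39.7%), against 13.6% of all 32851 mouse windows, and AGGTCA was in 20 (27.4%, against 16.3%). GTTAAT was in 10 windows (13.7%, against 7.10%), GCGTG in 15 (20.5%, against 32.4%) and the C/EBP motif TTGCGCAA in 0 (against 0.183%). None of the 5 motifs contains another, neighbouring members share ancestry and so sequence, and a match describes letters and not binding.

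The 12 deposited matrices did not hold 12 libraries. At E16.5, Jag1+/+ replicate 2 and Jag1Ndr/+ replicate 2 held the same 23166 barcodes with the same counts. They enter once, as the shared library. Among the P3 matrices, 6 of 15 pairs had 53.4% to 100% of barcodes in common, where the other 9 had 0.667% to 1.72%. Hence 5 E16.5 libraries and 4 P3 libraries were compared. Library A was labelled Jag1+/+ replicate 1 and library B Jag1+/+ replicate 2, and the genotype of both is unclear. Library C was Jag1Ndr/Ndr replicate 1 without the barcodes it shared with A (15145 barcodes), and library D was Jag1Ndr/+ replicate 1. Between 15024 and 29034 barcodes per library passed the filters, with median counts of 5325 to 9256 unique molecular identifiers (UMIs, 1 per captured transcript) at E16.5 and 2961 to 6235 at P3. Values below are in the order Jag1+/+ replicate 1, shared library, Jag1Ndr/+ replicate 1, Jag1Ndr/Ndr replicates 1 and 2 at E16.5, and A, B, C, D at P3. Levels are UMI counts scaled to the total of the cells named (CPM) and are not divided by gene length.

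Clusters named hepatocyte-like held 815, 754, 1252, 1172 and 923 cells at E16.5 and 500, 246, 83 and 123 at P3. All 14 hepatocyte markers had UMIs in every library. Of the 7 bile duct markers, Krt19 or Krt7 was at 0 in 7 of the 9 libraries, and the summed level was 2.88 to 17.6 CPM. Different clusters made up the class at each stage, and much of it carried RNA of other cells. Globin genes gave 34.4%, 18.2%, 43.8%, 43.7% and 27.4% of its UMIs at E16.5 and 9.24%, 6.5%, 9.66% and 3.73% at P3, and the 8 B cell markers summed to 73.9 to 130 CPM at E16.5 and 778 to 2152 CPM at P3. Stage changes of most genes described are therefore also given in the 1 cluster per stage led by Alb (an alternative chosen after seeing the data; 89, 220, 126, 101 and 142 cells, then 78, 23, 38 and 45), where globin genes gave 4.77% to 7.90% and 0.611% to 1.99% of UMIs and B cell markers 64.4 to 168 and 54.3 to 202 CPM. The 11 neutrophil markers summed to 2052 to 5671 and 1659 to 8963 CPM in all hepatocyte-like cells, and to 4076 to 10867 and 974.62 to 13331 CPM in the Alb-led cluster. The part of this RNA in the results was not tested beyond that.

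From E16.5 to P3 the P450 transcripts as a group became several times more abundant in hepatocyte-like cells. Together the 81 genes gave 518, 834, 348, 405 and 560 CPM at E16.5 and 3443, 2767, 3738 and 3993 CPM at P3. In the Alb-led cluster the sums were 1132, 1174, 831, 955 and 985 CPM, then 6187, 4927, 5165 and 5040 CPM, so the stages did not overlap in either set of cells. The plot of levels per library shows how unequally single members shared in this.

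**Figure D1:**
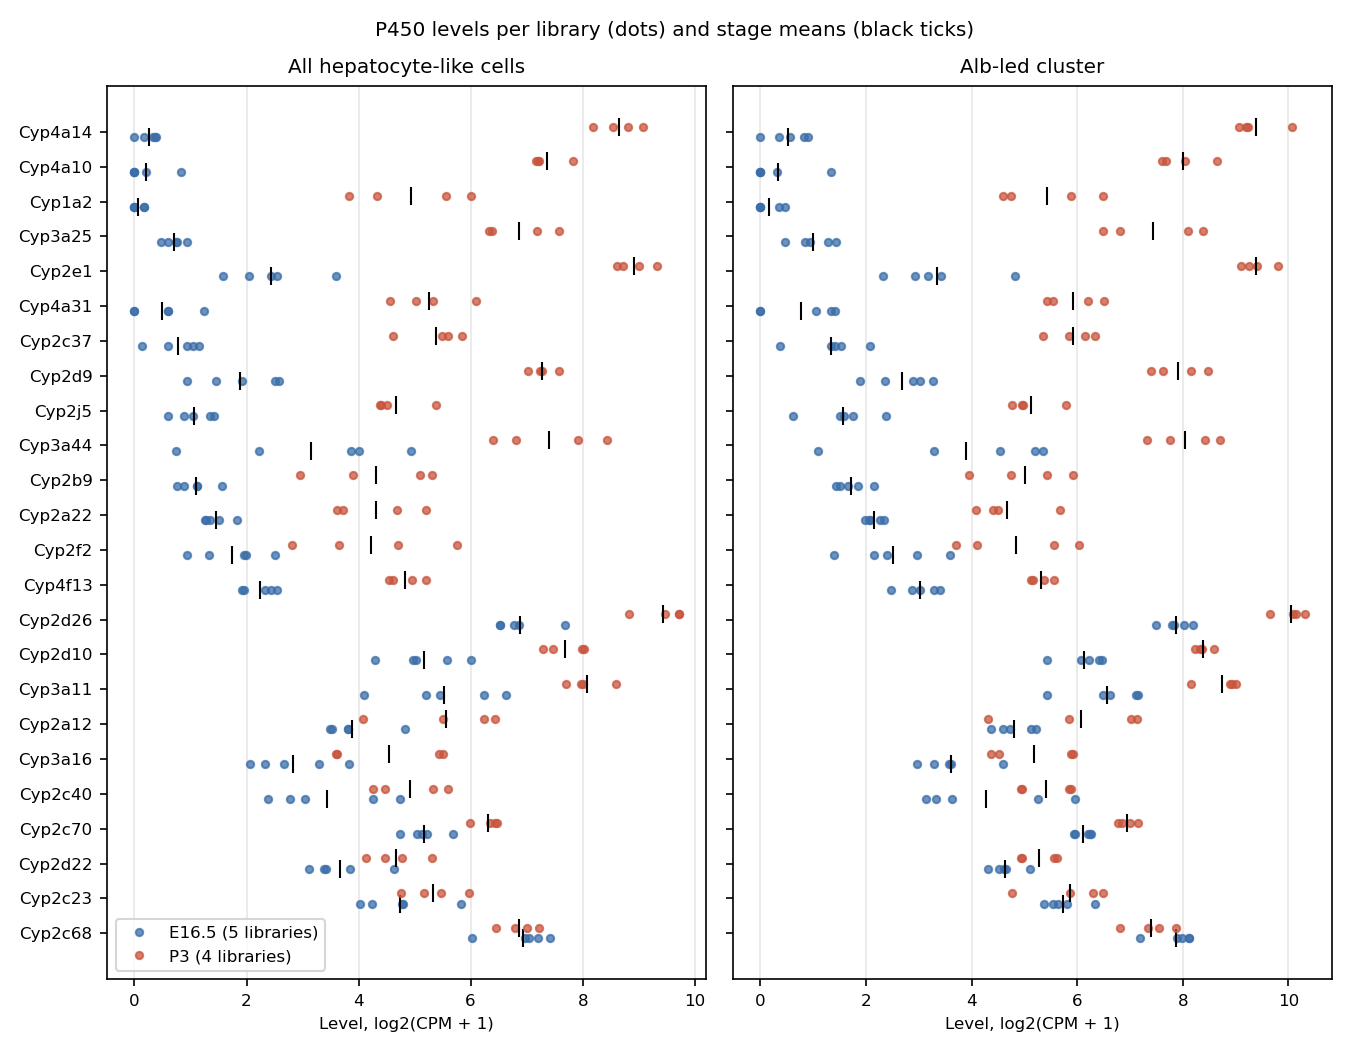
Level of the 24 P450 genes with a stage mean of at least 20 CPM in hepatocyte-like cells, as log2(CPM + 1), with 1 dot per library (5 at E16.5 in blue, 4 at P3 in red) and a black tick at the mean of each stage; the left panel holds all hepatocyte-like cells and the right panel the Alb-led cluster. The top rows (Cyp4a14 to Cyp3a25) sit near 0 at E16.5 and far to the right at P3, while Cyp2c68 and Cyp2c23 at the bottom overlap between the stages.

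Of the 81 genes, 34 had enough counts to be tested between stages in hepatocyte-like cells with edgeR's quasi-likelihood test. Of these, 24 were higher at P3 at an adjusted p under 0.05 and 0 were lower. Among all 10973 genes tested, 24.4% were called higher and 24.3% lower (48.7% in all), and the median log2 fold change was 1.85 for the P450 genes and -0.01 for all genes. Library totals in place of trimmed-mean scaling moved the median of all genes to 0.38, with 3788 genes higher and 1323 lower in place of 2679 and 2662, and called 26 P450 genes higher and 0 lower. In the Alb-led cluster 24 of 32 tested members were higher and 0 lower, with a median of 2.39, against 18.9% and 18.1% (37% in all) of the 9776 genes. A member can pass the count filter through the stage where it is high, so the 34 are not a sample of the 81. Without the filter 62 were tested, with 34 higher and 1 lower, against 17.1% and 18.5% (35.6%) of genes. With coarser clusters (Leiden resolution 0.5) 20 of 32 were higher and 1 lower, against 20.3% and 18.9% (39.2%) of genes, and without globin-rich cells 22 of 31 higher and 2 lower, against 21.3% and 20.6% (41.9%). The lower gene was Cyp2c68, joined by Cyp4a12a without globin-rich cells. Cyp2c68 was also called lower without E16.5 Jag1Ndr/+ replicate 1 (-0.58) or without library A (-0.58). Cyp4a12a was called lower (-2.52 and -3.88) without E16.5 Jag1Ndr/Ndr replicate 1 or without library C. Stage cannot be told apart from the digestion, the software version and the gene list, which differed between stages.

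The Cyp4a genes, whose enzymes hydroxylate fatty acids and whose transcription is a textbook target of Ppara, held the largest stage differences. Cyp4a14 (ENSMUSG00000028715, chr4:115486200-115496142, minus strand) stood at 0, 0.303, 0.286, 0.260 and 0.131 CPM at E16.5 and at 538, 290, 369 and 448 CPM at P3. Every P3 library was far above every E16.5 library. Pooled over libraries this was 8 UMIs against 2452, a ratio of 2171 (1102 to 5029). Limits of this and later pooled ratios come from the 95% counting interval of the E16.5 count alone, with the P3 count taken as exact. The fitted log2 fold change was 10.37 (edgeR, SE 0.329, adjusted p = 9.4e-11). Such a fitted value depends on the prior count where one stage is near 0. In the Alb-led cluster the P3 levels were 1066, 604, 534 and 587 CPM and no E16.5 library exceeded 0.859 CPM.

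Cyp4a10, its neighbour on chromosome 4, stood at 0, 0.152, 0, 0.781 and 0 CPM at E16.5 and at 226, 143, 146 and 148 CPM at P3. The ratio of pooled counts, 7 UMIs against 1021, was 1033 (501 to 2570), and the fitted log2 fold change 9.23, or 9.74 in the Alb-led cluster. Cyp4a31 was at 0, 1.36, 0, 0.521 and 0.524 CPM, then at 39.1, 22.5, 31.7 and 67.7 CPM, a ratio of 86.2 (53.9 to 148), with log2 fold changes of 5.97 and, in the Alb-led cluster, 6.26. Cyp4a10 and Cyp4a31 lie next to each other and share 14.8% and 10.2% of their 90-base words with each other or Cyp4a32, so part of their reads could be split between copies. Cyp4a12a went the other way in its estimate, -2.21 (edgeR, SE 1.16, adjusted p = 0.129), did not pass the test, and shares 37.8% of its words with Cyp4a12b. Its estimate in the Alb-led cluster was -1.70, also without a call. The increase was thus in 3 of the 4 tested Cyp4a genes.

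Cyp2e1, which oxidises ethanol, acetone and other small molecules and marks hepatocytes near the central vein in the adult, stood at 11.0, 4.40, 2.00, 3.12 and 4.84 CPM at E16.5. At P3 it stood at 419, 392, 637 and 514 CPM, and the stages did not overlap. The log2 fold change was 6.27 (edgeR, SE 0.366, adjusted p = 2.2e-08) and the pooled ratio 98.3 (84.7 to 115). In the Alb-led cluster Cyp2e1 (ENSMUSG00000025479, chr7:140763739-140774987, plus strand) was at 27.4, 6.67, 4.01, 8.06 and 9.70 CPM, then at 680, 552, 893 and 611 CPM, with a log2 fold change of 6.26.

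Cyp1a2, the hepatic family 1 enzyme that handles caffeine and is induced through Ahr, was at 0, 0, 0, 0.130 and 0.131 CPM at E16.5 and at 13.2, 19.1, 63.3 and 46.1 CPM at P3. Libraries C and D were above A and B, and all 4 were above every E16.5 library. Its 2 UMIs at E16.5 against 129 at P3 gave a ratio of 457, with wide limits of 127 to 3773 from the E16.5 count alone. The fitted log2 fold change was 8.25, or 8.17 in the Alb-led cluster. It was the only family 1 gene with enough counts for the test, and its receptor Ahr was at 17.7 ± 5.68 CPM (SD, n = 5) and 26.5 ± 12.0 CPM (SD, n = 4), with a log2 fold change of 0.15 that did not pass (adjusted p = 0.651, edgeR).

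All 5 tested Cyp3a genes, which oxidise steroids, bile acids and many drugs, were higher at P3. Cyp3a25 rose most, from 0.701, 0.910, 0.667, 0.391 and 0.524 CPM to 145, 191, 82.7 and 79.3 CPM. The pooled ratio was 222 (149 to 346), the log2 fold change 7.19, or 7.69 in the Alb-led cluster, and libraries A and B lay above C and D. Cyp3a11, the main Cyp3a enzyme of adult mouse liver and a target of PXR, was already at 42.8, 98.0, 35.9, 16 and 74.1 CPM at E16.5. It rose to 256, 251, 208 and 388 CPM, a log2 fold change of 2.06 (edgeR, SE 0.322, adjusted p = 0.000133), or 2.34 in the Alb-led cluster. Cyp3a44 spread widely at E16.5, at 15.1, 29.7, 0.667, 3.65 and 13.6 CPM, and stood at 83.7, 112, 241 and 344 CPM at P3 (log2 fold change 3.70, SE 0.627, or 3.93 in the Alb-led cluster). Its E16.5 libraries spanned a wider ratio than those of Cyp3a11, but all lay below every P3 library.

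Cyp3a16, described as a fetal and neonatal form, was at 3.16, 8.79, 5.33, 4.04 and 13.2 CPM, then at 11.1, 11.3, 42.2 and 44.7 CPM. Its stages overlapped and its call was the weakest of the 24, at a log2 fold change of 1.35 (adjusted p = 0.0342, edgeR). The call was lost, at log2 fold changes of 0.92 to 1.35 (adjusted p 0.052 to 0.16), without any one of 4 E16.5 libraries (all but Jag1Ndr/Ndr replicate 2), without C or D, without globin-rich cells, or with coarser clusters. In the Alb-led cluster the log2 fold change of Cyp3a16 was 1.74 (adjusted p = 0.00514, edgeR). Cyp3a13 had the fifth increase, with a log2 fold change of 1.51, or 1.88 in the Alb-led cluster.

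The Cyp2d genes, the mouse counterparts of the human drug-metabolising CYP2D6, contained both a gene near 0 at E16.5 and the member with the most UMIs over both stages. Cyp2d26 stood at 116, 205, 91.3, 91.1 and 108 CPM and then at 703, 455, 839 and 840 CPM. The shared library was high at E16.5 and library B low at P3, and the stages did not overlap. Its log2 fold change was 2.19 (edgeR, SE 0.215, adjusted p = 2.27e-06), and in the Alb-led cluster it rose from 180 to 292 CPM up to 807 to 1269 CPM. Cyp2d9, a testosterone hydroxylase in the adult male, rose from 1.75, 5.00, 2.76, 0.911 and 4.71 CPM to 154, 189, 150 and 130 CPM (log2 fold change 5.30, SE 0.286, or 5.60 in the Alb-led cluster). Cyp2d10 rose from 31.4, 63.2, 30.3, 18.6 and 46.6 CPM to 155, 177, 260 and 252 CPM (2.13, SE 0.244, or 2.46 in the Alb-led cluster). Cyp2d9 and Cyp2d10 share 12.3% and 18.9% of their words with Cyp2d neighbours and each other.

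Cyp2d22 differed less. It was at 9.64, 23.8, 7.62, 9.37 and 13.4 CPM and then at 26.3, 16.46, 21.1 and 38.9 CPM, so the shared library at E16.5 lay above libraries B and C. Its log2 fold change of 0.65 did not pass in all hepatocyte-like cells (adjusted p = 0.0625) and 0.93 passed in the Alb-led cluster (adjusted p = 0.00409, both edgeR).

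The Cyp2c genes, which act on arachidonic acid, steroids, bile acids and drugs, were split. Of 7 tested, 3 rose and 4 did not pass. Cyp2c68 (ENSMUSG00000074882, chr19:39688834-39741054, minus strand), whose promoter is printed above, stood at 131, 169, 64.3, 124 and 146 CPM at E16.5 and at 147, 110, 86.2 and 127 CPM at P3. The stages overlapped fully and the fitted log2 fold change was -0.46 (edgeR, SE 0.195, adjusted p = 0.0679), or -0.20 (adjusted p = 0.495) in the Alb-led cluster, where it was at 278, 238, 144, 278 and 253 CPM, then at 233, 186, 111 and 161 CPM. Fitted estimates use libraries rescaled by trimmed means and so differ from ratios of CPM. After removal of globin-rich cells Cyp2c68 was called lower, at -0.70 (adjusted p = 0.0164, edgeR).

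Cyp2c37, an arachidonic acid hydroxylase, was the opposite case, with 1.23, 1.06, 0.0952, 0.521 and 0.916 CPM at E16.5 and 47.6, 23.4, 44.0 and 56.2 CPM at P3 (log2 fold change 5.48, SE 0.351, and 5.48 in the Alb-led cluster). Cyp2c70, which in the mouse makes muricholic from chenodeoxycholic acid, was at 36.1, 50.5, 25.7, 32.2 and 33.9 CPM and then at 79.9, 62.4, 87.9 and 85.0 CPM. The stages did not overlap, and the log2 fold change was 0.76 (edgeR, SE 0.150, adjusted p = 0.000838) and 1.08 in the Alb-led cluster, but 0.31 without a call with coarser clusters. Cyp2c23, an arachidonic acid epoxygenase, was at 26.3, 55.8, 15.3, 18.0 and 26.7 CPM and at 34.7, 43.3, 61.6 and 25.9 CPM, with overlapping stages and a log2 fold change of 0.19 (adjusted p = 0.618, edgeR), or 0.41 without a call in the Alb-led cluster. Cyp2c40 was at 18.2, 7.28, 5.81, 25.6 and 4.19 CPM and at 39.1, 18.2, 21.1 and 47.6 CPM, also overlapping (0.95, adjusted p = 0.155, edgeR, or 1.17 without a call in the Alb-led cluster). Reads of Cyp2c40, Cyp2c67, Cyp2c68 and Cyp2c69 are uncertain, since 22.5% to 49.1% of their 90-base words occur in each other, and 9 of the 81 genes exceed 20% by this measure.

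Members of the smaller subfamilies also rose. Cyp2a12, a steroid and bile acid hydroxylase, was at 10.2, 27.3, 13, 10.5 and 13 CPM and at 85.0, 74.5, 15.8 and 44.7 CPM, where library C lay within the E16.5 range (log2 fold change 1.64, SE 0.317). It was 1.94 in the Alb-led cluster, and over the libraries with 1 clear genotype label it was 0.93 and did not pass. Cyp2a22 was at 1.40 to 2.58 CPM at E16.5 and at 12.1, 11.3, 24.6 and 36.0 CPM at P3. Cyp2b9, of the subfamily known for induction through CAR, was at 0.701 to 1.97 CPM and then at 6.75, 13.9, 38.7 and 33.1 CPM. Cyp2f2, which bioactivates naphthalene and is periportal in adult liver, was at 0.916 to 4.69 CPM and then at 25, 6.06, 52.8 and 11.5 CPM, with A and C above B and D. The log2 fold changes of Cyp2a22, Cyp2b9 and Cyp2f2 were 3.13, 3.96 and 3.00 in the Alb-led cluster.

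The arachidonic acid epoxygenase Cyp2j5 rose from 0.524 to 1.67 CPM up to 20.2, 19.9, 40.5 and 21.6 CPM, a log2 fold change of 4.0. Cyp4f13, of the subfamily that hydroxylates leukotrienes and long fatty acids, rose from 2.76 to 4.85 CPM up to 22.3, 23.4, 29.9 and 36.0 CPM (log2 fold change 2.43, SE 0.228). Stages did not overlap for either gene, and the Alb-led cluster gave 4.19 for Cyp2j5 and 2.65 for Cyp4f13. The other called members were Cyp2c67, Cyp2j6, Cyp3a13 and Cyp4f15, at log2 fold changes of 1.47, 1.57, 1.51 and 1.34. Cyp2c67 had too few counts for the test in the Alb-led cluster, where Cyp2j6 was at 1.73 and Cyp4f15 at 1.81. Outside the 29 genes described with values per library, the remaining 52 members had stage means of at most 19.9 CPM in hepatocyte-like cells. No UMI was found for 10 of the 81 genes in any passing barcode, while 60 had UMIs at both stages, 7 at P3 only and 4 at E16.5 only.

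**Figure D2:**
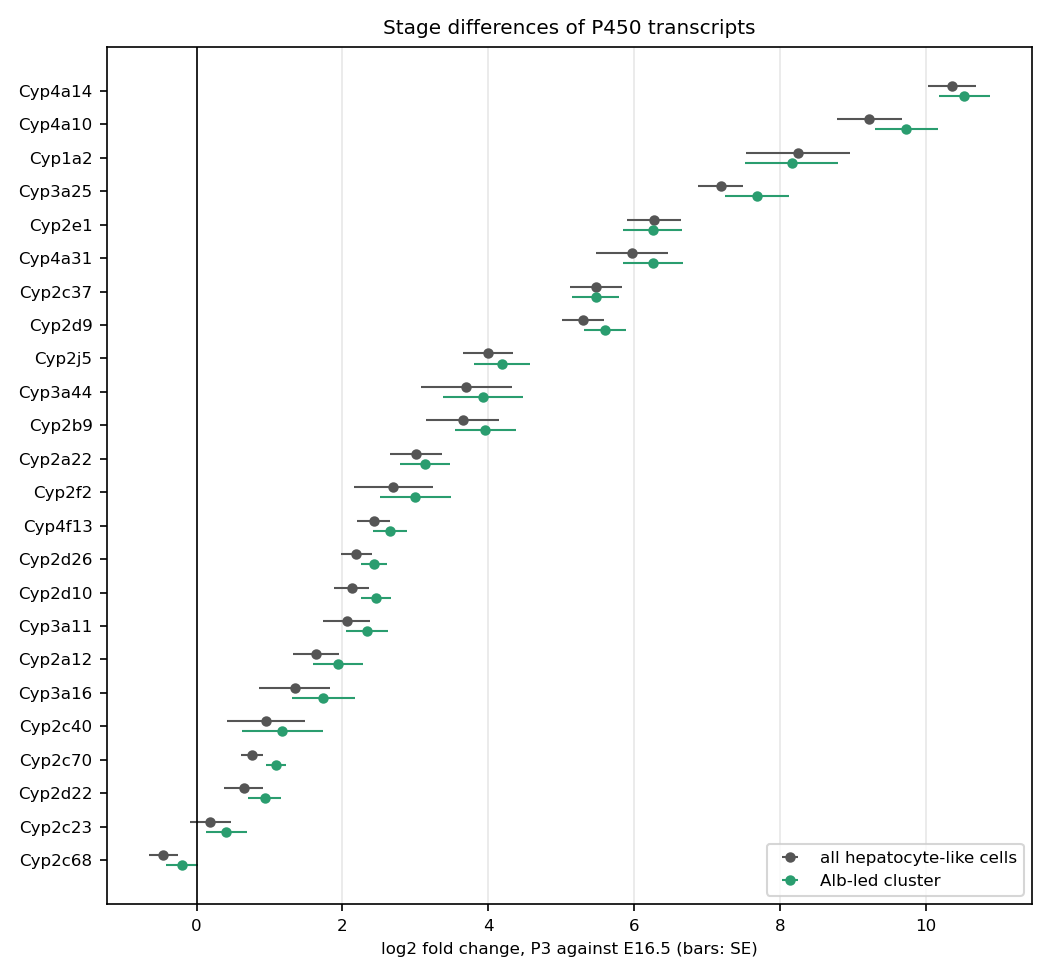
Log2 fold change at P3 against E16.5 of 24 P450 genes with bars of 1 SE, from edgeR fits over all hepatocyte-like cells (grey, 5 against 4 libraries) and over the Alb-led cluster (green). The estimates run from 10.37 for Cyp4a14 to -0.46 for Cyp2c68 in the grey series, and green and grey points lie close together, the widest gap being 9.74 against 9.23 for Cyp4a10.

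The make-up of P450 transcripts differed between the stages. In the Alb-led cluster, Cyp2c genes gave 38.9% ± 6.99 of all family 1 to 4 UMIs at E16.5 (SD, n = 5) and 9.11% ± 0.549 at P3 (SD, n = 4), while their summed level was 396 ± 85.6 and 486 ± 71.0 CPM. Cyp2d genes kept a similar share, 33.3% ± 4.02 and 32.0% ± 1.45, while their sum went from 337 ± 52.7 to 1703 ± 165 CPM. Cyp4a genes went from 1.70% ± 1.10 to 19.1% ± 4.10. Cyp2e1 alone went from 1.06% ± 0.789 to 12.9% ± 2.96, and the Cyp3a genes from 14.4% ± 4.58 to 19.3% ± 3.13. At E16.5, Cyp2c and Cyp2d were thus the bulk of the P450 UMIs, and at P3 the Cyp2d, Cyp3a, Cyp4a and Cyp2e genes were. These shares are descriptions of sums, and no test was run on them.

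**Figure D3:**
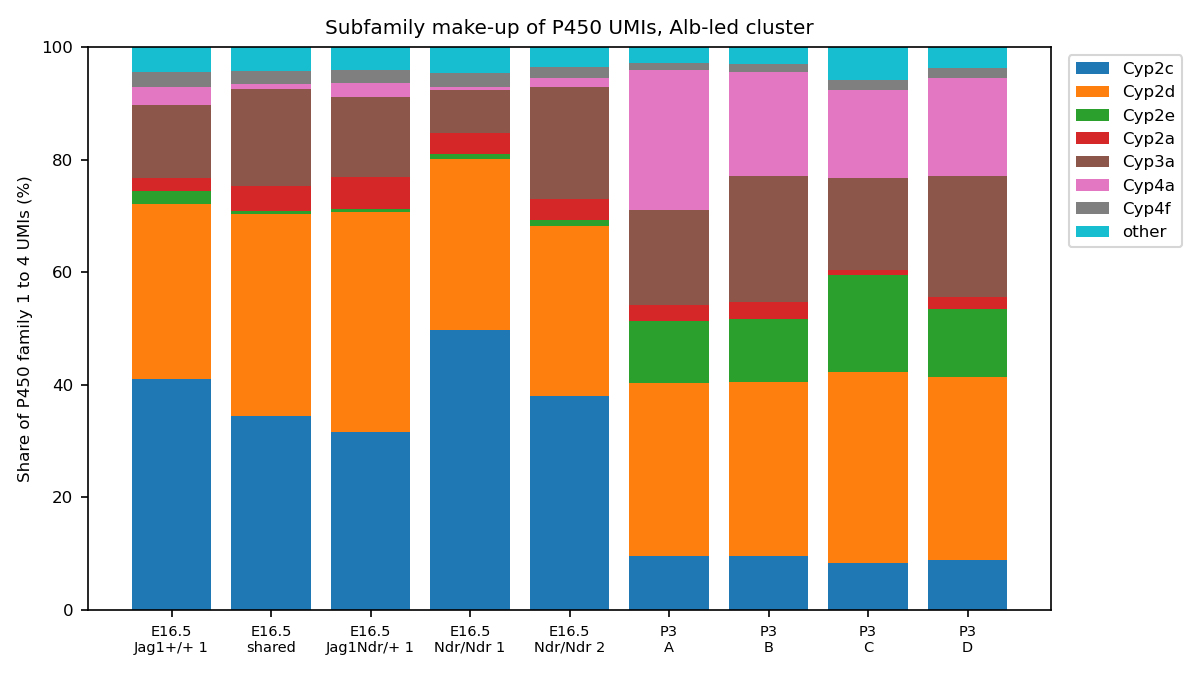
Share of family 1 to 4 P450 UMIs (percent, axis from 0 to 100) taken by each subfamily in the Alb-led cluster, with 1 stacked bar per library. Blue (Cyp2c) takes 38.9% on average in the 5 E16.5 bars and 9.11% in the 4 P3 bars, and pink (Cyp4a) and green (Cyp2e) are wider at P3.

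Shares of cells with a transcript, given without a test, were higher at P3 for Cyp2e1, Cyp4a14 and Cyp2d26 and not for Cyp2c68. With each cell of the Alb-led cluster thinned to 2000 UMIs, Cyp2e1 was found in 1.12%, 1.36%, 2.38%, 1.98% and 3.52% of cells at E16.5 and in 48.7%, 43.5%, 65.8% and 60.0% at P3. Unthinned, the shares were 5.94% to 13.5% and 73.3% to 89.5%. In erythroid-like cells, thinned shares of Cyp2e1 were at most 0.0359% at E16.5 and 0.0915% to 0.441% at P3, far below the Alb-led cells at both stages. In summed counts of erythroid-like cells, Cyp2e1 and Cyp4a14 were also called higher at P3. The part of free RNA in the shares of either kind of cell was not tested. Cyp4a14 was found in 0% of thinned cells in each E16.5 library and in 82.1%, 65.2%, 65.8% and 64.4% at P3. Unthinned, Cyp4a14 was in 0% to 2.38% of cells (0 of 89 in Jag1+/+ replicate 1, exact upper limit 4.06%) and then in 92.1% to 96.2%, and in erythroid-like cells thinned shares were at most 0.452%. Median depths of the Alb-led cells were 18270 to 27708 UMIs at E16.5 and 9305 to 21604 at P3.

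Cyp2d26 was found in 30.3% to 43.6% of thinned Alb-led cells at E16.5 and in 75.6% to 91.0% at P3. Cyp2c68 was found in 28.6% to 44.6% at E16.5 and in 15.8% to 34.6% at P3, with library C lowest. In erythroid-like cells, whose median depths were 4922 to 9424 UMIs at E16.5 and 2628 to 5391 at P3, the thinned shares were 0.517% to 0.937% and 0.183% to 1.03% for Cyp2d26, and 0.543% to 1.13% and 0% to 0.161% for Cyp2c68, far below those of the Alb-led cells. Unthinned, Cyp2d26 was in 83.2% to 90.5% and then in 100% of cells, and Cyp2c68 in 91.3% to 97.3% and then in 55.3% to 95.7%.

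Over all passing barcodes, most of which are blood cells, the picture was mixed, and in such sums fewer hepatocytes and less RNA per hepatocyte cannot be told apart. Of 42 members tested, 15 were higher and 11 lower at P3, against 27.6% and 26.4% (54% in all) of the 14504 genes. Without library A, 13 of 41 were higher and 14 lower, against 3910 and 3782 of 14535 genes. The median log2 fold change was 0.20 for the members and 0.02 for all genes. The members' median was not stable, at -0.29 without library A, 0.04 without B, 0.35 without C and -0.20 over the libraries with 1 clear genotype label. With library totals in place of trimmed means the median of all genes shifted to 0.61, the split of all genes from 4000 higher and 3835 lower to 6971 and 1167 (48.1% and 8.05%, 56.1% in all), and that of members to 19 higher and 5 lower. Cyp2c68 had the values 8.0, 11.3, 4.80, 8.55 and 8.15 CPM and then 3.02, 1.49, 0.715 and 1.33 CPM, a fall of 2.86 on the log2 scale with edgeR (adjusted p = 0.000101). The values of Cyp2e1 were 0.485, 0.295, 0.187, 0.272 and 0.272 CPM and then 9.22, 5.92, 5.39 and 5.76 CPM, a log2 fold change of 3.85. Cyp2d26, which rose within hepatocyte-like cells, had a log2 fold change of -0.38 here (adjusted p = 0.277, edgeR), and 0.19 with library totals.

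For 6 members the highest mean over a named class lay outside hepatocyte-like cells and reached 10 CPM. Other members that peaked outside, such as Cyp2j9, were below that. Cyp4b1, a fatty acid hydroxylase known from the lung, had its highest level in endothelial-like cells, at 57.7, 47.6, 20.6, 64.2 and 29.4 CPM at E16.5 and at 82.4, 104, 182 and 104 CPM at P3. The stages did not overlap, and the log2 fold change was 1.29 (edgeR, SE 0.263, adjusted p = 0.00129, over all pairs of class and gene). Of the 2 endothelial-like clusters at E16.5, cluster 25 had 54.9 CPM and cluster 23 had 15.5 CPM, and the 1 cluster at P3 had 113 CPM. In hepatocyte-like cells Cyp4b1 was at 0.911 to 4.21 CPM and 1.44 to 3.52 CPM.

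Cyp4f18, known for the hydroxylation of leukotriene B4 in myeloid cells, had its highest level in basophil and mast-like cells. It stood there at 115, 140, 90.3, 138 and 143 CPM at E16.5 and at 195, 231, 283 and 233 CPM at P3, without overlap (log2 fold change 0.72, SE 0.150, adjusted p = 0.00123, edgeR). These classes had 28 to 119 cells per library at E16.5 and 52 to 112 at P3. Cyp4f18 also gave 15 to 32.3 CPM in monocyte-like cells at E16.5 and 18.7 to 84.4 CPM at P3, a difference that did not pass. It was called higher at P3 at lower levels in macrophage-like cells (1.54 to 2.50 CPM, then 1.66 to 13.7 CPM, log2 fold change 1.60, adjusted p = 0.0214, edgeR) and in erythroid-like cells (1.23, adjusted p = 0.0374, edgeR), where no library exceeded 1.05 CPM. Cyp4f16 had its highest level in monocyte-like cells, at 8.32, 7.31, 6.84, 14.6 and 9.54 CPM and then at 15, 16.9, 17.4 and 16.6 CPM (0.71, adjusted p = 0.0114, edgeR). Cyp4v3, a fatty acid hydroxylase, was at 4.04 to 9.70 CPM in macrophage-like cells at E16.5 and at 9.41 to 14.3 CPM at P3, with overlapping stages and no call. Its means in hepatocyte-like cells were close to that, 9.54 and 10.6 CPM, and in the Alb-led cluster higher, 18.8 and 16.03 CPM.

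Cyp2s1, a P450 known mainly outside the liver, had its UMIs in the mesenchymal-like class almost entirely in 1 small cluster at each stage. At E16.5 it had 56.4 CPM in the 68 cells of cluster 30, led by collagen genes, and 0.345 CPM in the 963 cells of the other mesenchymal-like cluster, 20. At P3 it had 54.5 CPM in the 135 cells of cluster 36 and 0 UMIs in the 323 cells of cluster 29. Cluster 36 was grouped with the mesenchymal-like cells by its collagen genes, but its leading genes were Ins2 (13309 CPM) and Ins1, the insulin genes of pancreatic islets, while cluster 30 had 3.84 CPM of Ins2. All 66 Cyp2s1 UMIs of the class at P3 were thus in the cluster led by insulin genes. Cyp2d22 also had more in these clusters, 25.6 CPM in cluster 30 and 60.3 CPM in cluster 36 against 5.01 CPM in cluster 20 and 4.79 CPM in cluster 29.

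Summed over both clusters of a stage, Cyp2s1 was at 2.50, 1.22, 6.26, 10.9 and 11.2 CPM and then at 23.5, 25.8, 36.8 and 10.1 CPM. Library D lay within the E16.5 range, and the log2 fold change of the sum was 1.37 (edgeR, SE 0.453, adjusted p = 0.0225). Cyp2d22 in the same sums was at 7.51, 12.2, 3.98, 10.1 and 6.85 CPM and at 30.4, 35.8, 21.4 and 20.1 CPM (1.47, edgeR, SE 0.279, adjusted p = 0.000608), a P3 mean of 26.9 CPM beside 25.7 CPM in hepatocyte-like cells and 38.6 CPM in the Alb-led cluster. Within the small clusters the Cyp2s1 levels of the stages had overlapping counting intervals (41.0 to 75.7 and 42.2 to 69.4 CPM). Those of Cyp2d22 did not overlap (15.7 to 39.6 and 47.3 to 75.8 CPM). These intervals are of counts pooled over the libraries of a stage and leave out variation between animals. The 2 clusters also differ in kind, since only the one at P3 was led by insulin genes. The part of the small clusters in the differences of the sums was not tested.

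Over the named classes outside hepatocytes with enough cells, 71 pairs of class and member were tested and 35 were called, 21 higher and 14 lower at P3, against 22% and 22% (44.1% in all) of the 98200 pairs. Cyp4f13 was the member called in the most classes, higher in 7, with log2 fold changes of 0.97 in monocyte-like to 1.98 in macrophage-like cells. In macrophage-like cells Cyp4f13 went from 1.43 to 3.86 CPM up to 12.1 to 15.4 CPM. Most other calls were of hepatocyte genes at a few CPM or less. Cyp2e1 was called higher in 4 classes and Cyp2c68 lower in 5, the direction in which their levels over all barcodes moved, and the part of free hepatocyte RNA in these calls was not tested.

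**Figure D4:**
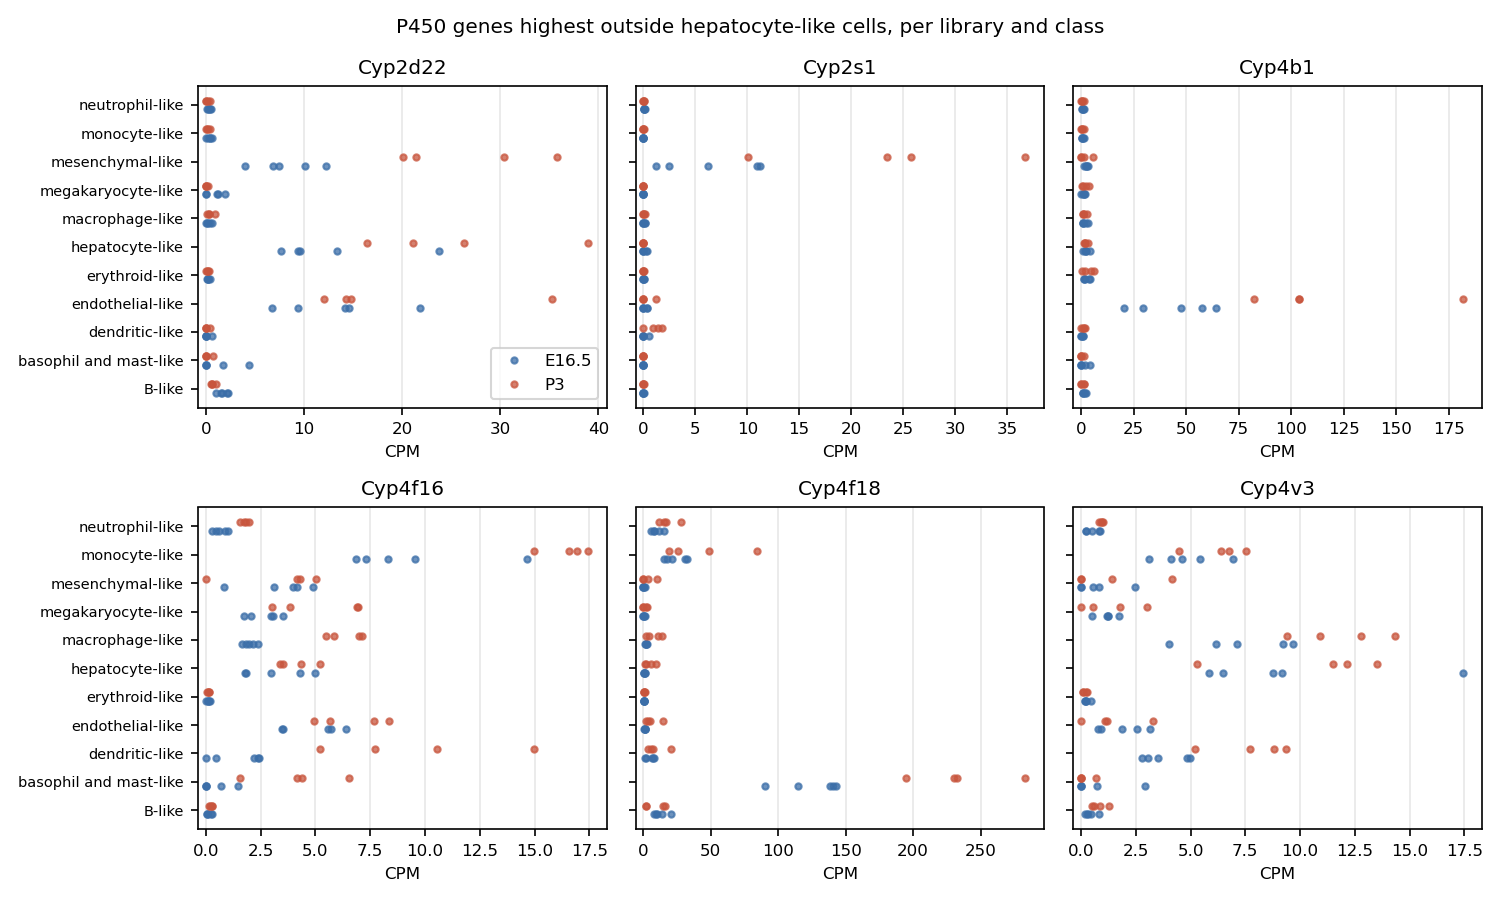
Level in CPM of 6 P450 genes whose highest mean over a class lies outside hepatocyte-like cells and is at least 10 CPM, with 1 dot per library and class (blue E16.5, red P3). Cyp4b1 stands out in endothelial-like cells, up to 182 CPM, Cyp4f18 in basophil and mast-like cells, up to 283 CPM, while the points of Cyp2s1 in the row of mesenchymal-like cells, up to 36.8 CPM, come at P3 wholly from the cluster led by Ins2.

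The second comparison the design gives is genotype, with the 2 Jag1Ndr/Ndr libraries against the other 3 at E16.5. No P450 gene was called. In hepatocyte-like cells edgeR called 0 of 27 tested members, and an unadjusted p under 0.05 was reached by 0 of them, against 0% of all 11233 genes called and 1.68% with an unadjusted p under 0.05. That count of members moved when 1 library was left out, to 6 of 30 without Jag1Ndr/Ndr replicate 2 (499 of all 11536 genes) and 3 of 30 without Jag1Ndr/Ndr replicate 1 (219 of 11512). In these 2 fits the Jag1Ndr/Ndr group is 1 library, which is assumed to vary like the others. It was 2 of 27 without Jag1Ndr/+ replicate 1 (181 of 11052), and 1 of 26 without Jag1+/+ replicate 1 (170 of 11100) or the shared library (396 of 11035). No member was called in any of these 5 fits with edgeR. DESeq2 called 3 genes, none of them a member. The Alb-led cluster gave 0 calls among 26 members and among all 10746 genes with edgeR (243 genes at an unadjusted p under 0.05) and 3 with DESeq2. Cyp2d26 was at 91.1 and 108 CPM in Jag1Ndr/Ndr and at 116, 205 and 91.3 CPM in the others, with overlap, and its log2 fold change was -0.31 (edgeR, SE 0.217, adjusted p = 1). In the Alb-led cluster Cyp2d26 was at 221 and 180 CPM in Jag1Ndr/Ndr and at 258, 292 and 226 CPM in the others, without overlap and without a call. In all hepatocyte-like cells Cyp2c68 was at 124 and 146 CPM against 131, 169 and 64.3 CPM (0.32, SE 0.239). Cyp3a11 was at 16 and 74.1 CPM against 42.8, 98.0 and 35.9 CPM (-0.30, SE 0.481), and its sign turned when either the shared library or Jag1Ndr/Ndr replicate 1 was left out.

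These standard errors are wide, and 5 libraries do not show that the genotypes are alike. Over all passing barcodes 35 members were tested and 0 called (0% of 14490 genes, 0.959% with an unadjusted p under 0.05, 5 genes by DESeq2). In the other classes 78 pairs of class and member were tested and 0 called, against 0.00101% of 99322 pairs. Of the 78, 5 had an unadjusted p under 0.05, against 1.84% of all pairs (1832), the smallest for Cyp4f18 in monocyte-like cells, at 32.3 and 30.6 CPM in Jag1Ndr/Ndr and 20.9, 17.5 and 15 CPM in the others. That log2 fold change was 0.83 (SE 0.172, unadjusted p = 0.00056, adjusted p = 1, edgeR), so it failed the correction, although both homozygous libraries lay above all others.

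**Figure D5:**
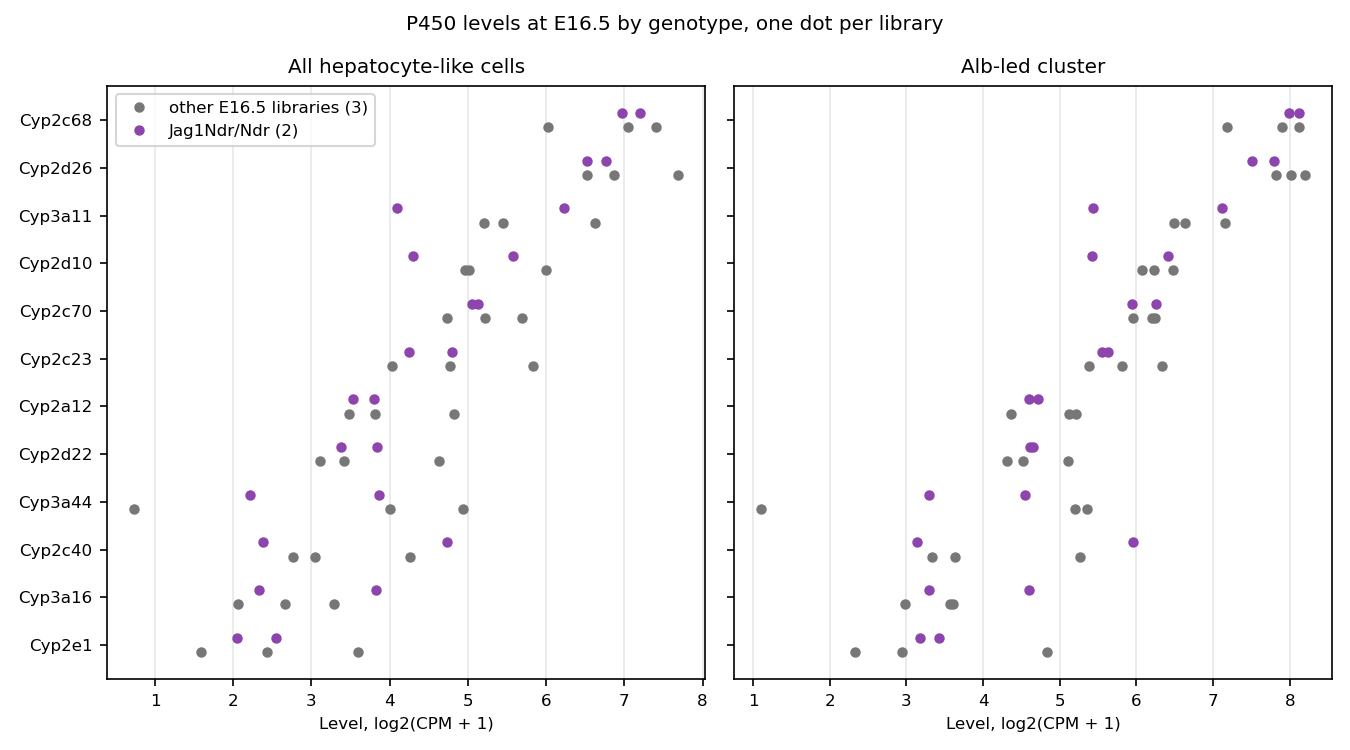
Level at E16.5, as log2(CPM + 1), of 12 P450 genes in the 2 Jag1Ndr/Ndr libraries (purple) and the 3 other libraries (grey), in all hepatocyte-like cells (left) and the Alb-led cluster (right). In the left panel the purple and grey ranges overlap for each of the 12 genes, for example Cyp2d26 with 91.1 to 108 CPM beside 91.3 to 205 CPM. In the right panel both purple points of Cyp2d26 (221 and 180 CPM) lie below its grey ones (226 to 292 CPM).

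At P3 only library C (Jag1Ndr/Ndr, 83 hepatocyte-like cells) and library D (Jag1Ndr/+, 123 cells) carried 1 clear label each, so values with exact 95% Poisson intervals are given and no test was made. Those intervals cover counting error and not the variation between pups. Of 28 members with at least 10 UMIs in the 2 libraries together, 6 had intervals that did not meet. Among all 7828 genes with that many UMIs the share was 5.66%. Whether intervals meet depends on the count, and members reached 477 UMIs in C and 583 in D (Cyp2d26). The genes were not matched to the members by count, so this share is no baseline for the 6. Libraries C and D also differed in the globin share of the class, and its part was not tested. Cyp3a11 was at 208 CPM (172 to 248) in C and 388 CPM (343 to 437) in D. Cyp3a44 was at 241 CPM in C and 344 CPM in D, and Cyp2a12 at 15.8 and 44.7 CPM. The other 3 were higher in C, namely Cyp2e1 at 637 (573 to 706) and 514 CPM (462 to 571), Cyp2c23 at 61.6 and 25.9 CPM, and Cyp2f2 at 52.8 and 11.5 CPM. Cyp2d26 was at 839 and 840 CPM.

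Genes that work with the P450 enzymes were followed in 5 lists, whose counts stand beside the 24.4% of all genes called higher and 24.3% called lower in hepatocyte-like cells (18.9% and 18.1% in the Alb-led cluster). Of 10 redox partners and heme suppliers, 3 rose and 1 fell, with a median log2 fold change of 0.14, and in the Alb-led cluster 4 rose and 2 fell (0.39). Por, the electron donor of microsomal P450s, rose from 38.0 ± 9.04 CPM (SD, n = 5) to 191 ± 73.7 CPM (SD, n = 4), a log2 fold change of 1.94, Alas1, the first enzyme of hepatic heme synthesis, by 1.14, and Cyb5a, the cytochrome that supports some P450 reactions, by 0.99. Fdxr, which serves mitochondrial P450s, fell by 0.71. The Alb-led cluster gave 2.18 for Por, 0.84 for Alas1, 0.65 for Cyb5a and -0.94 for Fdxr. Cyb5r3 passed in the Alb-led cluster, with a rise of 0.48, and Hmox1, which degrades heme, fell there by 1.71 (adjusted p = 0.0183, edgeR). Of 18 tested nuclear receptors and regulators, 9 rose and 2 fell (median 0.66), and 9 rose and 1 fell in the Alb-led cluster (0.73). Nr1i3 (CAR) rose from 1.72 ± 1.32 to 78.9 ± 21.8 CPM, Nr0b2 (SHP), a corepressor induced by bile acids, from 0.243 ± 0.128 to 44.3 ± 19.2 CPM, and Ppara from 22.4 ± 7.87 to 84.8 ± 45.9 CPM. Onecut1, a liver transcription factor, rose by 2.64 and Nr1i2 (PXR) by 1.32. The Alb-led cluster gave 5.09 for Nr1i3, 6.76 for Nr0b2, 1.59 for Ppara, 2.57 for Onecut1 and 1.08 for Nr1i2. Cebpb fell by 1.02, and by 1.43 in the Alb-led cluster. Arnt, the partner of Ahr, fell by 0.54 in all hepatocyte-like cells, but in the Alb-led cluster it had a log2 fold change of -0.06 and no call (adjusted p = 0.881, edgeR).

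Of 30 tested conjugating and other oxidising enzymes, 18 rose and 4 fell (median 1.02), and in the Alb-led cluster 14 of 27 rose and 3 fell (1.00). The calls of Gsta3, Gsta4, Gstm2 and Gstm3, glutathione transferases, were lost there and that of Ces1d was gained. The bilirubin-conjugating Ugt1a1 rose from 0.0452 ± 0.0632 to 15.9 ± 18.5 CPM, and the epoxide hydrolases Ephx1 and Ephx2 by 3.78 and 3.68 on the log2 scale and the sulfotransferase Sult1d1 by 2.45, while Ugt2b36 and Ugt2b34 fell by 1.66 and 1.22. The Alb-led cluster gave 6.95 for Ugt1a1, 4.08 for Ephx1, 3.38 for Ephx2, 2.03 for Sult1d1, -1.36 for Ugt2b36 and -0.91 for Ugt2b34. Of 6 tested P450 genes of family 7 and above, 4 rose and 2 fell (median 1.52), and 4 rose and 1 fell in the Alb-led cluster (1.68). Cyp8b1 and Cyp7a1, both of bile acid synthesis, rose by 3.15 and 1.83, and Cyp27a1 and Cyp39a1 of the same pathway by 1.63 and 1.40. The Alb-led cluster gave 3.43 for Cyp8b1, 2.09 for Cyp7a1, 1.65 for Cyp27a1 and 1.70 for Cyp39a1. Cyp20a1 fell by 0.89, and by 0.81 in the Alb-led cluster. Cyp51, of cholesterol synthesis, fell by 0.87, but its -0.56 in the Alb-led cluster was not called (adjusted p = 0.155, edgeR). Of 13 tested genes known for zones of the adult lobule, 9 rose and 0 fell (median 1.08), and 8 of 12 rose and 0 fell in the Alb-led cluster (1.05), where the call of Ass1 was lost. Among those that rose were both pericentral ones (Glul, 1.08) and periportal ones (Pck1, 7.47, and Hal, 1.87), with Hsd17b6 at 7.97 and Gulo at 1.50. The tested genes of this list without a call, Oat, Lgr5, Tbx3 and Rhbg, were all pericentral, but so were Glul, Gulo and Lect2 (0.95), which rose. Lgr5 was near the floor, at means of 1.43 CPM at E16.5 and 2.12 CPM at P3. A difference between the zones was not tested. The Alb-led cluster gave 0.98 for Glul, 7.20 for Pck1, 1.77 for Hal, 8.36 for Hsd17b6 and 1.59 for Gulo. Between genotypes 0 genes of these lists were called.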

How the data were processed

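Droplet single-cell libraries of mouse liver were deposited by the authors as raw UMI counts per gene and barcode, with barcode and gene lists as other files. The submitters' processing notes name Cell Ranger 2.1.1, R 4.1.2, Seurat and mm10, while the file headers name version 3.0.2 of the 10x software at P3 and 3.1.0 at E16.5; strand and multi-mapping options are not given in the sources used here. Kept were barcodes of 1000 or more UMIs whose mitochondrial share did not exceed 15%, doublets included. Cells of each stage were clustered (scanpy 1.11.5, Leiden resolution 1) without Cyp genes and named from marker lists, so names may differ from those of the authors. Counts were summed per library and class, filtered, scaled by trimmed means and tested with edgeR 4.0.16 (R 4.3.3), with Benjamini-Hochberg adjustment over all genes, and with DESeq2 1.42.0 as an alternative. The fits were tested on simulated data. In hepatocyte-like cells they recovered 44% of 2-fold and 92% of 4-fold changes for stage, and 39% and 84% for genotype. Over all barcodes they recovered 67% and 97% for stage, and 29% and 83% for genotype. Unchanged genes called in error numbered 3 for stage and 6 for genotype in hepatocyte-like cells, and 8 and 22 over all barcodes. Far fewer genes were changed in the simulation than were called for stage in the data, so these rates need not hold for the stage results. Gene positions came from GENCODE M21 (GRCm38), which matched all 81 identifiers. Named were members with a stage mean of at least 20 CPM in hepatocyte-like cells, or with their highest class mean elsewhere at 10 CPM or more, and the up to 4 called genes with the largest change of each pathway list, with a few others chosen after their values were seen. Each library is 1 individual per the design text, and alternatives left out each library, changed filters, scaling, clusters and doublets. The members and lists were chosen with earlier results of these data known. Confidence intervals are 95% and cover counting error only, and the limits of pooled ratios cover that of the E16.5 count only.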

Additional observations from a re-analysis of the deposited data

Results flagged for a closer look

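In 60 groups of 4 or 5 libraries looked at, 6 held 1 library far from the others. The limits used give about 1 in 20 by chance only for independent groups of normally spread values. These groups come from the same libraries and some hold few UMIs, so that rate is no measure for the 6. The shared library at E16.5 stood high for Cyp2a12 (27.3 CPM, others 10.2 to 13), Cyp2c23 (55.8 CPM, others 15.3 to 26.7) and Cyp2d26 (205 CPM, others 91.1 to 116) in hepatocyte-like cells. It was also the E16.5 library with the lowest globin share there, 18.2%, and the part of this in the 3 values was not tested. E16.5 Jag1Ndr/Ndr replicate 1 stood high for Cyp4a10 (0.781 CPM, others 0 to 0.152). At P3, library C stood high for Cyp2j5 (40.5 CPM, others 19.9 to 21.6) and library A for Cyp4a10 (226 CPM, others 143 to 148). In the Alb-led cluster the shared library lay closer to the others for Cyp2a12 (36.2 CPM, others 19.7 to 33.8) and Cyp2d26 (292 CPM, others 180 to 258). Cyp2c23 was there at 79.5 CPM, with the others at 40.7 to 55.4.

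Cyp2c70 moved in opposite directions between the stages in different classes. Its log2 fold change was 0.76 in hepatocyte-like cells, -1.68 in B-like cells and -2.74 in erythroid-like cells, and it was also called lower in neutrophil-like cells (-1.44). Its level was at most 1.62 CPM in these 3 blood classes, against 25.7 to 87.9 CPM in hepatocyte-like cells. Cyp3a16, called higher in hepatocyte-like cells, was called lower in erythroid-like cells (-2.60, adjusted p = 0.0065, edgeR). Cyp2d22 was called higher in mesenchymal-like cells (1.47) and lower in B-like cells (-1.39, adjusted p = 0.0041, edgeR). At P3, 73 of its UMIs in the mesenchymal-like class were in cluster 36, led by Ins2, and 7 in cluster 29. The larger mesenchymal-like clusters had similar levels of Cyp2d22, 5.01 CPM at E16.5 (cluster 20) and 4.79 CPM at P3 (cluster 29). The part of free hepatocyte RNA was not tested, and the differences between classes were not themselves tested.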

How the results depend on the processing

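In hepatocyte-like cells the count of P450 genes lower at P3, 0 as reported, became 1 at Leiden resolution 0.5, 2 after removal of globin-rich cells and 1 without a filter on low counts, and ranged from 0 to 1 when single libraries were left out; Cyp2c68 and Cyp4a12a were the genes concerned. The count of higher genes, 24, ranged from 20 (Leiden resolution 0.5) to 34 (no filter). Over all barcodes the count of lower P450 genes went from 11 to 5 with library totals (3835 and 1167 of all 14504 genes). It was 14 without library A (3782 of all 14535 genes). Cyp2c23 turned to -0.18 at Leiden resolution 0.5, -0.24 without globin-rich cells and -0.03 without library C. Over all barcodes Cyp2d26 turned to 0.19 with library totals, and Cyp4b1 to 0.09 in libraries with 1 genotype label and 0.00 with library totals. For genotype, Cyp3a11 turned to 0.06 without the shared library and 0.36 without Jag1Ndr/Ndr replicate 1, and was -1.54 without Jag1Ndr/Ndr replicate 2, and in the Alb-led cluster, an alternative chosen after seeing the data, to 0.05 and 0.42. The cause was not tested. Calls were lost for Cyp2a12 (0.93 in libraries with 1 label), Cyp2c70 (0.31 at Leiden resolution 0.5) and Cyp3a16 in 8 settings. Of 840 alternatives of the named members' stage change in hepatocyte-like cells, 799 kept direction and side of the threshold. In the same direction, 28 gained a call and 10 lost it, and 3 reversed direction. With the replicate block 25 of 34 members were higher and 0 lower in hepatocyte-like cells, against 2674 and 2627 of all 10973 genes. Over all barcodes 14 of 42 members were higher and 12 lower, against 3911 and 3710 of 14504 genes. For genotype 0 members and 0 of all genes were called. Cyp2d22 passed with the block (adjusted p = 0.0427, edgeR). Same-numbered E16.5 libraries correlated at 0.254, -0.0542 and 0.165 in their deviations from group means. The 2 Jag1Ndr/Ndr libraries have deviations of opposite sign by construction, so these values cannot show whether the numbers pair the libraries. Precision is limited by 23 to 220 Alb-led cells per library.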
